A study of Rattus norvegicus with 5 samples.

Results

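Cones dominated by the middle-wavelength opsin (M-cones) were picked out of droplet single-cell RNA sequencing of rat retina by their own transcripts. A cell barcode counted as an M-cone when it held at least 200 genes, at most 40% mitochondrial UMIs (unique molecular identifiers, 1 per captured transcript), at least 4 summed UMIs of the cone genes Arr3, Gnat2, Pde6h and Pde6c, at least 2 UMIs of Opn1mw, and at least as many UMIs of Opn1mw as of Opn1sw. The rule found 377 M-cones among 41184 cells that passed the first 2 limits, out of 44236 cell barcodes. They numbered 113 in the control library, 124 at 2 weeks, 41 at 4 weeks and 99 at 8 weeks of diabetes.

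The series holds 5 retinas of SD rats, the outbred Sprague Dawley strain, whose age is not given in the sources used here. Diabetes was induced by 1 injection of streptozotocin, a toxin of the insulin-making beta cells, at 45 mg/kg after fasting. Rats with blood glucose above 200 mg/dL then received a diet high in fat and sugar for 2, 4 or 8 weeks, with 1 retina library per time. Controls (0 weeks) received citrate buffer after fasting and not the toxin. Diabetes, diet and weeks of treatment go together in these groups and cannot be told apart from control. Whether the controls match the diabetic rats in age is not given. Control replicate 2 served as the control library, and control replicate 1 was not analysed here. All retinas were digested with trypsin before capture. Each group therefore has 1 library, cells of a library are not replicates, and every comparison between times is a description of single libraries whose intervals cover counting error only.

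Cones are the photoreceptors of daylight and colour vision. In a cone, light turns the opsin on, the opsin activates the cone transducin whose alpha subunit is Gnat2, transducin activates the cone phosphodiesterase (catalytic subunit Pde6c, inhibitory subunit Pde6h), and the fall in cyclic GMP closes the channel of Cnga3 and Cngb3, while the arrestin Arr3 ends the signal. Rodents have a middle-wavelength opsin, Opn1mw, and a short-wavelength opsin, Opn1sw, and a single cone may carry both. Thyroid hormone acting through its receptor Thrb is known from mouse to turn on Opn1mw and hold down Opn1sw, and Crx, a homeodomain factor, drives photoreceptor genes in general.

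The 2 opsin genes decide membership, so the bases before their start sites are shown for reference, 5′ to 3′ on each gene's own strand, from RefSeq on the GRCr8 build, which is not the build of the counts. Opn1mw lies on chrX:157056105-157056354 (plus strand) and Opn1sw on chr4:58945826-58946075 (minus strand), each window ending at the base before the start site. Capitals mark matches to 3 motifs, each searched on both strands. TAATCC is a core motif of Crx. TATAAA is a TATA box. The element bound by nuclear receptors such as Thrb is AGGTCA.
Opn1mw: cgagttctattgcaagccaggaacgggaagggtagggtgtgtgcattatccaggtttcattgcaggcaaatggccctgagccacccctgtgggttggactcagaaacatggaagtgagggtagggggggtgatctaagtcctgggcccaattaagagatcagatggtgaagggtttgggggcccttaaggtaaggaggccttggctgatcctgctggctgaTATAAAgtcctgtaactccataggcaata
Opn1sw: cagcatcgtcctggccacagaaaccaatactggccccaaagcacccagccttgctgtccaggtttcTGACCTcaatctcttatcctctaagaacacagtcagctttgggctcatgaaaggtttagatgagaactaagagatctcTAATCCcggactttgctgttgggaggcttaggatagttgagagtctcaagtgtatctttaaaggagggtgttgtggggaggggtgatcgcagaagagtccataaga
The Opn1mw window held 1 match, TATAAA beginning at base -29. The Opn1sw window held TAATCC beginning at base -106 and AGGTCA on the other strand (printed TGACCT) beginning at base -184. Among 33469 rat promoter windows of 250 bases, 6.34% held TAATCC, 12.9% TATAAA and 14.1% AGGTCA. The promoter table matched 4 of the 6 genes of the rule.

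The members were deep cells. Their median was 3742 UMIs in control, 3207 at 2 weeks, 4482 at 4 weeks and 3726 at 8 weeks, against 1260, 1190, 1167 and 1645 in rods (cells chosen by rod genes, among them at least 4 summed UMIs of Gnat1, Pde6a, Pde6b and Pde6g, with at most 1 of the 4 cone genes and at most 1 of both opsins together). Their summed UMIs came to 464121, 422272, 190036 and 416902, which makes the 4-week sum the thinnest. The median mitochondrial share of M-cones was 14.0, 11.3, 16 and 16.4%, above the 3.23, 8.55, 2.38 and 4.08% of rods. A limit of 20% would have left out 32, 9, 7 and 28 members. Between 13 and 70 barcode sequences recurred in a pair of libraries, and 0 of them were M-cones in both.

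The members were chosen by their counts of 6 genes, and those counts are given as a description. Opn1mw had a median of 4, 3, 3 and 4 UMIs per member in control and at 2, 4 and 8 weeks, and at most 16, 10, 7 and 13. Exactly 2 UMIs, the minimum, were held by 26, 40, 17 and 22 members, and 22, 62, 13 and 16 other cones fell just outside with 1 Opn1mw UMI and fewer than 2 of Opn1sw. The minimum of 4 cone gene UMIs set no limit, since the lowest member held 19, 15, 27 and 27. In the summed M-cones, Opn1mw stood at 1127, 1042, 705 and 1113 CPM (the gene's UMIs scaled to a common total per sum), the arrestin Arr3 at 3374, 2565, 1747 and 3445 CPM, Gnat2 at 6259, 7308, 5278 and 5615 CPM and Pde6c at 478, 291, 163 and 439 CPM. The 4-week library was lowest for each of these 4 genes. Pde6h stood at 9808, 10086, 9235 and 20165 CPM, highest at 8 weeks.

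Members were also examined for transcripts of other cell types. Of the 377, 38 held at least 5 UMIs of the marker list of at least 1 cell type that is not a photoreceptor: 9 in control, 11 at 2 weeks, 5 at 4 weeks and 13 at 8 weeks. By list, 24 M-cones held 5 or more bipolar UMIs, 19 held 5 or more of Müller glia, and 1 to 3 each held as many of amacrine cells, microglia, endothelial cells and red cells. Single members stood far above the rest. They were 1 control cell with 109 amacrine UMIs and 1 with 97 bipolar UMIs, 1 cell at 2 weeks with 64 endothelial and 1 with 59 microglial UMIs, 1 cell at 4 weeks with 166 Müller UMIs, and 2 cells at 8 weeks with 182 and 120 bipolar UMIs. Summed over M-cones, the bipolar list stood at 476, 514, 258 and 1130 CPM, the Müller list at 323, 433, 1121 and 554 CPM, and the amacrine list at 289, 33.2, 15.8 and 43.2 CPM. The microglial list stood at 10.8, 147, 0 and 16.8 CPM, and all 8 of its genes were at 0 at 4 weeks. The ganglion cell list had 6 or 7 of its 7 genes at 0 in every library, the pericyte list 4 to 6 of 6, and the astrocyte list 2 or 3 of 3. Rod transcripts stood at 17517, 22341, 13613 and 20199 CPM for the rod list, and their source was not tested. Results below that turn on the 38 cells are given with and without them, an alternative chosen after seeing the data.

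M-cones made up 1.25% of kept cells in control (95% Clopper-Pearson interval 1.03 to 1.5%), 0.8002% at 2 weeks (0.666 to 0.953%), 0.414% at 4 weeks (0.298 to 0.562%) and 1.47% at 8 weeks (1.19 to 1.78%). The control and 8-week intervals overlapped, the 2-week and 4-week shares lay below both, and no test between times was possible with 1 library each. The share depends on how many cells of other types each preparation released and on the UMIs available to reach 2 of Opn1mw, and the part of each was not tested.

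Among cones that could be assigned to an opsin with all UMIs, M-cones were the larger group in every library, and by the widest margin in control. This majority did not hold in every library when cells were thinned to 1000 UMIs, and the shares describe the opsin counts that the rule used. S-cones, which held at least 2 UMIs of Opn1sw and more of it than of Opn1mw, numbered 12, 40, 11 and 68. M-cones were thus 90.4% of assigned cones in control (83.8 to 94.9%), 75.6% at 2 weeks (68.3 to 82.0%), 78.8% at 4 weeks (65.3 to 88.9%) and 59.3% at 8 weeks (51.4 to 66.8%). A further 82, 176, 70 and 88 cones had neither opsin at 2 UMIs, and of these 45, 59, 33 and 58 held at least 5 bipolar UMIs. With each cell thinned to 1000 UMIs before the rule was applied, the shares were 80.8, 56.8, 47.1 and 49.5%. The control share stayed the highest and the order of the others changed. M-cones then numbered 42, 46, 8 and 46 and S-cones 10, 35, 9 and 47, so M-cones were not the larger group at 4 and 8 weeks. Opn1mw had a median of 4, 3, 3 and 4 UMIs per M-cone before thinning, near the minimum of 2. Opn1sw stood at 13346, 12135, 11818 and 5920 CPM in S-cones, and Opn1mw at 1127, 1042, 705 and 1113 CPM in M-cones. Thinning thus takes M-cones below the minimum more readily than S-cones, and the thinned shares are no depth-corrected ratio of cone types.

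**Figure D1:**
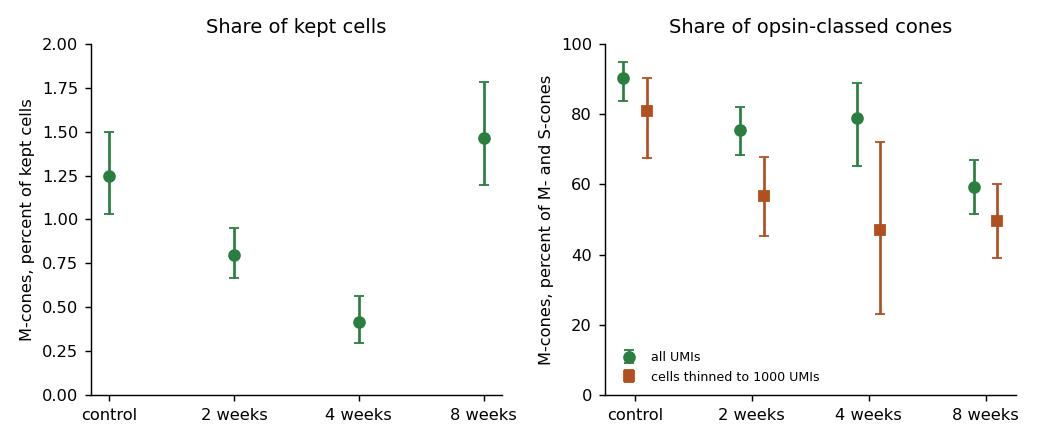
Left, M-cones as a percent of kept cells in each library. Right, M-cones as a percent of M- and S-cones with all UMIs (circles) and with cells thinned to 1000 UMIs (squares). Points are single libraries and bars are exact binomial 95% intervals. The left share ran from 0.414% at 4 weeks to 1.47% at 8 weeks, and the right share from 90.4% in control to 59.3% at 8 weeks.

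Few M-cones carried the other opsin, and most of those that did were in the 8-week library. The rule sets part of this low share, since a cone with more Opn1sw than Opn1mw is not counted as an M-cone. An Opn1sw UMI was seen in 1 of 113 control members (0.885%), 2 of 124 at 2 weeks (1.61%), 0 of 41 at 4 weeks, where the exact interval reaches 8.60%, and 8 of 99 at 8 weeks (8.08%, 3.55 to 15.3%). Rods, which should lack it, held an Opn1sw UMI in 0.144, 0.353, 0.100 and 0.795% of cells at a shallower median depth when chosen with no limit on opsin UMIs, which added 1 rod at 8 weeks and 0 in the other libraries. Seen from S-cones, Opn1mw was common: it was found in 6 of 12 S-cones in control, 13 of 40 at 2 weeks, 5 of 11 at 4 weeks and 58 of 68 at 8 weeks (85.3%), against 0.120, 0.141, 0.0603 and 0.277% of rods chosen with no limit on opsin UMIs. With S-cones thinned to 1000 UMIs the shares were 25, 18.4, 36.4 and 48.5%. Cones with at least 2 Opn1mw UMIs but more of Opn1sw, which the rule leaves out of the M-cones, were 5 of 118 such cones in control (4.24%), 6 of 130 at 2 weeks (4.62%), 3 of 44 at 4 weeks (6.82%) and 46 of 145 at 8 weeks (31.7%, 24.3 to 40.0%). The 8-week interval lay above the control and 2-week intervals (1.39 to 9.61% and 1.71 to 9.78%). In S-cones, Opn1sw itself stood at 13346, 12135 and 11818 CPM in the first 3 libraries and at 5920 CPM at 8 weeks. With 1 retina per time, the 8-week difference cannot be told apart from a difference between animals or between the regions of retina that were captured.

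**Figure D2:**
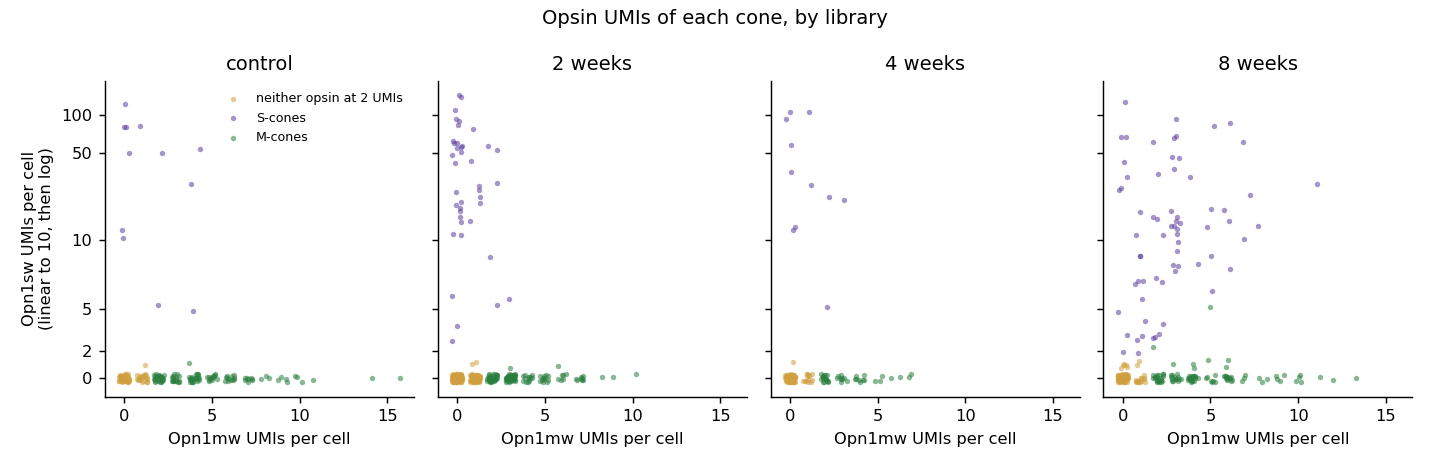
Opn1mw UMIs (horizontal) against Opn1sw UMIs (vertical, linear to 10 and log above) of every cone in each library, jittered. M-cones are green, S-cones purple and cones with neither opsin at 2 UMIs yellow. In the 8-week panel 46 cones hold at least 2 Opn1mw UMIs below a higher Opn1sw count, against 3 to 6 in the other panels.

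Few genes outside the rule passed the test between M-cones and S-cones. UMIs were summed per library and cone type, and the 4 pairs were tested with edgeR's quasi-likelihood test with the library as a block. Among 3208 genes, 3 were higher in M-cones (0.0935%) and 2 lower (0.0623%) at a Benjamini-Hochberg adjusted p under 0.05, leaving aside the genes of the rule, while 164 had an unadjusted p under 0.05. None of the genes tested in the lists of cone phototransduction, regulators, thyroid hormone handling, outer segment, ribbon synapse, respiratory chain, glycolysis and ATF4 response passed.

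Ccdc136, a coiled-coil protein gene, was lower in M-cones in 4 of 4 libraries. It stood at 21.5, 11.8, 0 and 60.0 CPM in M-cones and at 947, 908, 1516 and 728 CPM in S-cones of control and of 2, 4 and 8 weeks, a log2 difference of -5.07 (SE 0.26, edgeR adjusted p = 2.26e-20). The groups did not overlap. In the RefSeq gene order Ccdc136 is the protein-coding neighbour of Opn1sw on chromosome 4, with only a tRNA gene between them and on opposite strands, so the gene that moved with membership lies next to an opsin the rule used. Whether its UMIs were read from Opn1sw transcripts cannot be told from gene counts. Rods held 59.4, 102, 63.3 and 144.5 CPM. The call held under each alternative run, with log2 differences from -6.22 to -4.73. A cone gene minimum of 8 UMIs or of 10 cells of both types left the same cells, so those runs could not change it. Rgl3, an exchange factor of the Ral GTPase pathway, was also lower in M-cones, at 62.5, 80.5, 126 and 57.6 CPM against 185, 143, 308 and 124 CPM (log2 -1.11, SE 0.24, edgeR adjusted p = 0.017).

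Rbp4, the retinol carrier, was higher in M-cones in 4 of 4 libraries, at 972, 871, 2342 and 686 CPM against 831, 422, 1160 and 552 CPM in S-cones (log2 0.67, SE 0.14, edgeR adjusted p = 0.0097). Tuba1b, an alpha tubulin with close relatives, stood at 1340, 791, 1610 and 933 CPM against 623, 415, 1137 and 795 CPM (log2 0.63, SE 0.14, edgeR adjusted p = 0.0146). Rbp4, Tuba1b and Rgl3 each lost the call under 7 to 10 of the 16 or 17 alternatives that gave a value, DESeq2 and the removal of Scrublet doublets among them. The runs that left the same cells are counted in these 16 or 17. Without the 2-week library each of the 3 also lost it.

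Pcp2, a Purkinje and bipolar cell gene on the bipolar marker list, passed the same test, at 183, 175, 21.0 and 482 CPM in M-cones against 23.1, 78.7, 0 and 37.5 CPM in S-cones (log2 2.73, SE 0.32, edgeR adjusted p = 4.58e-08). A single 8-week member held 122 of its UMIs. Without the cones that carried markers of other cell types, among them Pcp2 itself, M-cones stood at 28.3, 53, 13.2 and 24.7 CPM and S-cones at 23.1, 103, 0 and 32.5 CPM. The groups then overlapped, and the gene fell below the filter on low counts, so it has no test there. Without the 8-week library the log2 difference was 1.51 (edgeR adjusted p = 0.0257).

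Thrb, the thyroid hormone receptor that drives Opn1mw in mouse, stood at 353, 294, 237 and 283 CPM in M-cones and at 46.2, 100, 189 and 225 CPM in S-cones. M-cones were higher in 4 of 4 libraries and the groups did not overlap, yet the difference missed the threshold (log2 0.89, edgeR adjusted p = 0.084). It passed without the 8-week library (log2 1.48, edgeR adjusted p = 0.000336) and without the 4-week library (log2 0.94, adjusted p = 0.0208), but not without the control library (log2 0.70, adjusted p = 0.303) or the 2-week library (log2 0.66, adjusted p = 0.999). Crym, which binds thyroid hormone inside cells, was higher in M-cones in 3 of 4 libraries (836, 599, 274 and 578 CPM against 600, 136, 47.4 and 604 CPM, log2 0.70, edgeR adjusted p = 0.21). Rxrg, the partner receptor of Thrb in cones, stood at 159, 149, 200 and 134 CPM in M-cones and 185, 129, 166 and 199 CPM in S-cones (log2 -0.17, adjusted p = 0.999).

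Against rods, M-cones differed in a large share of genes: of 10442 tested with the same edgeR design, 1512 were higher (14.5%) and 1893 lower (18.1%), with a median log2 difference of -0.21 over all genes. Cone signalling genes that the rule did not use are given first. Gngt2, the cone transducin gamma subunit, stood at 8461, 7995, 5709 and 8110 CPM in M-cones and at 54.9 to 138 CPM in rods (log2 6.41, SE 0.25, edgeR adjusted p = 8.96e-45). Gnb3, the cone transducin beta subunit, was higher by 3.91 and Cngb3, the cone channel subunit, by 9.36 (340, 284, 153 and 377 CPM against 0.450 to 0.498 CPM). Slc24a2, the cone sodium-calcium exchanger, was higher by 3.82. Cnga3, the partner of Cngb3, was barely captured, with 10.8, 2.37, 15.8 and 0 CPM in M-cones. In every library the members thus carried cone genes that the rule did not use.

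Of the 20 tested genes in the cone phototransduction list, 7 were higher and 9 lower, and the list median of -0.22 was close to that of all genes. The lower members were shared or rod-weighted components: Guca1b, a guanylate cyclase activator (-2.20), Gucy2f, a retinal cyclase (-2.40), the opsin kinase Grk1 (-1.18) and phosducin, Pdc (-0.97), while the activator Guca1a was higher (1.04). Among regulators, Rxrg (8.30), Sall3 (5.44) and Thrb (2.36) were higher in M-cones and the rod factors Nrl (-3.14), Nr2e3 (-3.54) and Samd11 (-3.18) lower, with edgeR adjusted p-values of 6.25e-09 or smaller for these 6. Crx did not pass the threshold (log2 0.57, adjusted p = 0.16). Of the 16 tested in that list, 4 were higher and 4 lower.

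The genes that set M-cones furthest from rods included several outside phototransduction. Tex28 stood at 64.6, 107, 31.6 and 118 CPM in M-cones, at 0.124 CPM in control rods and at 0 in the other rods (log2 11, SE 0.54, edgeR adjusted p = 5.87e-36). It is the direct neighbour of Opn1mw on chromosome X in the RefSeq order, with 0 genes between them and on the opposite strand, and whether its UMIs were read from Opn1mw transcripts cannot be told from gene counts. S-cones held it at 46.2, 14.3, 0 and 116 CPM. Sst, the neuropeptide somatostatin, stood at 440, 403, 268 and 393 CPM in M-cones and at most at 1.69 CPM in rods (8.71), and S-cones held it too, at 854, 493, 237 and 604 CPM. Ffar4, a receptor for long-chain fatty acids (9.79), Rbp4 (8.20), Dysf, the membrane repair protein dysferlin (7.99), Slc16a8, a monocarboxylate transporter (7.87), and Nphs1, nephrin (7.02), were likewise at 45.0 to 2342 CPM in M-cones and at 10.3 CPM or less in rods. Nccrp1 (8.30), Nptx1, a neuronal pentraxin (6.86), and Tspan1, a tetraspanin (6.65), completed the 12 highest with Rxrg and Cngb3.

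On the lower side, the largest differences were not rod genes. Hbb (-7.22), Hba-a3 (-6.01) and 2 genes under the symbol Hba-a2 (-4.80 and -4.21) are globins of red cells, and Ccl4 (-4.74) is a chemokine of microglia. In rods the first Hba-a2 gene stood at 1960, 1218, 908 and 178 CPM and in M-cones at 66.8, 21.3, 0 and 26.4 CPM. Globin genes share close copies, and the counts per copy are uncertain. C1ql3 (-3.53), Hs3st3b1, a heparan sulphate sulphotransferase (-3.40), and Arhgef26, a guanine nucleotide exchange factor (-3.30), followed, the last at 58.4 to 78.7 CPM in rods and 0 to 12.0 CPM in M-cones.

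**Figure D3:**
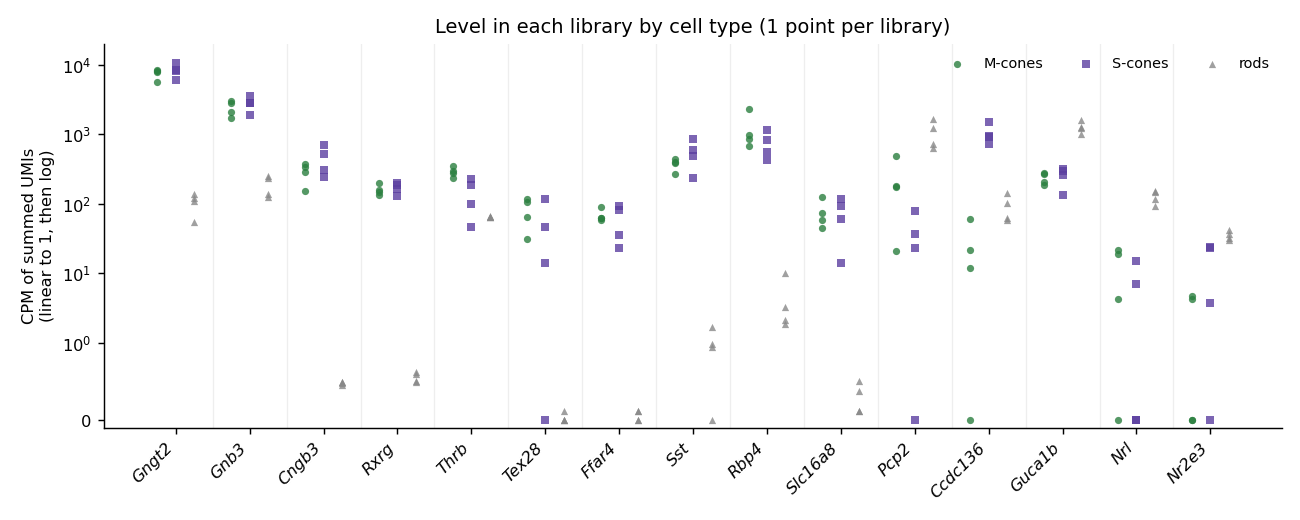
CPM of summed UMIs (linear to 1, log above) of 15 genes in M-cones (circles), S-cones (squares) and rods (triangles), 1 point per library. Gngt2, Cngb3, Rxrg, Tex28, Sst and Rbp4 lie above rods in every library, while Ccdc136 is the gene with M-cones far below S-cones. The Pcp2 points of M-cones hold the droplets that also carry bipolar markers.

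Among the pathway lists, cell type markers aside, the respiratory chain had the highest median against rods. Of 34 nuclear genes of the respiratory chain tested, 30 were higher in M-cones and 0 lower, with a median of 1.00 beside -0.21 over all genes. Over all genes, 14.5% were higher and 18.1% lower. Their summed level was 30046, 33748, 30278 and 26356 CPM in M-cones and 12619, 22443, 16646 and 13204 CPM in rods. Ndufa4, a complex IV subunit, stood at 3340, 4748, 3941 and 3039 CPM against 1384, 4370, 2714 and 1513 CPM (log2 0.93). Of 13 mitochondrially encoded genes, 8 were higher and 0 lower (median 0.53), in cells whose mitochondrial share the filter capped at 40%. Of 23 glycolytic genes, 10 were higher and 5 lower (median 0.21), the lower ones a share near that of all genes. Among the higher were Eno1, enolase (1.65), and Ldha, lactate dehydrogenase A (0.96). Hk2, the hexokinase of photoreceptors, was lower (-1.27, 963, 890, 1000 and 1362 CPM against 3187, 1900, 3375 and 3364 CPM). Of 26 proteasome genes, 11 were higher and 0 lower.

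Lists of stress genes differed in direction against rods. Beside the 14.5% of all genes that were higher and the 18.1% that were lower, the ATF4 response lay lower. Of 28 genes of the ATF4 response, the transcription program of amino acid and endoplasmic reticulum stress, 19 were lower and 1 higher (median -0.78). Of 17 immediate early genes 10 were lower and 2 higher, and of 15 p53 and growth arrest genes 8 were lower and 1 higher. The 2-week library differed less in the summed lists. There the immediate early list stood at 3398 CPM in M-cones, with 49.7% of its UMIs in 1 cell, and at 3301 CPM in rods. The ATF4 list stood at 3368 and 3556 CPM. Of 26 oxidative defence genes 8 were higher and 2 lower (median 0.28), of 19 chaperones of the endoplasmic reticulum 2 were higher and 2 lower (median 0.07), and of 16 heat shock genes 4 were higher and 5 lower (median -0.01). The outer segment list had 10 of 23 genes lower and 3 higher (median -0.52), and the retinoid cycle list 7 of 12 lower and 0 higher, Rdh12, a photoreceptor retinol dehydrogenase (-1.06), among them. The ribbon synapse list had 8 of 26 higher and 4 lower, the latter a share near that of all genes, with Lrit3, a synaptic protein that organises the cone to bipolar contact (2.26), and Slc1a2, a glutamate transporter (1.78), on the higher side. Asmt, the last enzyme of melatonin synthesis, was higher (194, 246, 416 and 309 CPM against 22.9 to 47.4 CPM, log2 3.12).

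Over the times, the comparisons with control rest on the same control library, so they are given side by side and no overlap between them is counted. A gene entered when its mean over the M-cone sums of the 4 libraries reached 50 CPM and the pair compared held 30 or more of its UMIs. At 2 weeks 68 of 2800 genes were at least 2-fold higher (2.43%) and 46 lower (1.64%). At 4 weeks 60 of 2738 were higher (2.19%) and 115 lower (4.2%). At 8 weeks 32 of 2792 were higher (1.15%) and 29 lower (1.04%). These shares are a background with no test, and the 4-week sum has the fewest UMIs. It held 190036 UMIs and the control sum 464121. A gene high in control therefore reached the minimum of 30 UMIs more easily than one equally high at 4 weeks. This filter favours lower ratios at 4 weeks, and its part in the 115 lower genes was not tested. The median ratio over all genes was 0.08, 0.04 and -0.03 (log2).

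The ATF4 response genes that reached the minimum of 50 CPM had medians near control in M-cones, while the same genes differed widely between the rod sums. These 13 genes had medians of -0.04, -0.01 and 0.19 at 2, 4 and 8 weeks in M-cones, and in rods of -1.56, -1.22 and -0.55. The summed list of 34 genes stood at 3184, 3368, 3878 and 3308 CPM in M-cones and at 8912, 3556, 5250 and 6492 CPM in rods. S-cones were near M-cones, at 2909, 2810, 3979 and 3260 CPM. Of the less abundant members, which the minimum leaves out of these medians, Trib3, a pseudokinase induced by ATF4, stood at 21.5, 14.2, 31.6 and 33.6 CPM in M-cones and 298, 13, 148 and 184 CPM in rods. Chac1, which degrades glutathione, stood at 17.2, 0, 10.5 and 9.59 CPM against 129, 1.69, 8.46 and 33.0 CPM, and Asns, asparagine synthetase, at 53.9, 26.1, 5.26 and 45.6 CPM against 210, 8.60, 17.3 and 144 CPM. In M-cones these values rest on few UMIs, 10, 8 and 25 in control and 6, 0 and 11 at 2 weeks, and each of the 3 genes was below control at 2 weeks in M-cones as in rods. Of the 13 at 2 weeks, 0 were past 2-fold lower and 1 was past 2-fold higher, beside 1.64% and 2.43% of all genes. With 13 genes these counts cannot be told from those shares. The difference between the cell types was not tested, with 1 library per time.

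At 2 weeks the immediate early genes, which respond within minutes to stimulation or handling, were high in M-cones, and most of that came from 2 droplets. Their summed level was 636 CPM in control, 3398 at 2 weeks, 810 at 4 weeks and 528 at 8 weeks, and 2991, 3301, 1699 and 2063 CPM in rods. At 2 weeks 1 cell of 15518 UMIs, which also held 64 endothelial UMIs, carried 713 immediate early UMIs (49.7% of the total), and the cell with 59 microglial UMIs carried 303 (21.1%). Without the members that carried other cell types' markers, the summed level was 615 CPM for the 104 control cells and 1049 CPM for the 113 cells at 2 weeks. Of the 239 and 376 UMIs behind these sums, 33 and 194 were of Egr1. Over the 8 genes used, the median log2 ratio at 2 weeks was 2.31 with all members. In the cells left it was -0.01, with 4 genes above control and 4 below, so the list as a whole did not stay high.

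Egr1, an immediate early transcription factor, kept its difference in the remaining cells. It stood at 84.0, 696, 31.6 and 14.4 CPM in all M-cones, and in the cells left it had 84.9 CPM in the control library and 541 CPM in the 2-week library (log2 2.65, 2.13 to 3.25). It was detected in 12 of 104 control cells left (11.5%, 6.11 to 19.3%) and in 59 of 113 at 2 weeks (52.2%, 42.6 to 61.7%). Rods differed in the same direction, from 86.3 to 484 CPM. Fos in the cells left had 36.0 CPM in the control library and 94.8 CPM in the 2-week library (log2 1.37, 0.46 to 2.41). Jun, the partner of Fos in the AP-1 factor, went the other way, from 157 to 50.2 CPM (log2 -1.62, -2.49 to -0.87), whereas over all members it stood at 159 and 395 CPM, so its direction turned with the cells left out.

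Other genes named at 2 weeks were spread over many cells. Acat1, a mitochondrial thiolase of ketone and isoleucine use, had 60.3 CPM in control cells and 156 CPM after 2 weeks (log2 1.36, 0.72 to 2.07), and Crot, which hands medium-chain fatty acids from peroxisomes to carnitine, stood at 123 and 315 CPM (1.35, 0.90 to 1.83), with smaller ratios in rods (0.64 and 0.63). An identifier under the symbol Uqcrb, a complex III subunit, stood at 30.2 and 175 CPM (2.50, 1.70 to 3.48) and differed as much in rods (2.52). A second identifier with that symbol stood at 1086 and 1139 CPM, and how reads were shared between such copies is uncertain. Trim44, Samd4a, a translational repressor, Smarcd2, a chromatin remodelling subunit, and Zcchc17 had ratios from 1.22 to 1.35. On the lower side Slc16a8, the transporter that sets cones apart from rods, stood at 125, 45.0, 57.9 and 74.4 CPM over the 4 libraries (2 weeks -1.45, -2.30 to -0.70). Osgep, a tRNA modifying enzyme (-1.35), Usp47 and Uchl3, deubiquitinases (-1.26 and -1.22), Mphosph6 (-1.20), Ppial4d, a cyclophilin copy (-1.18), and Pomp, the proteasome maturation protein (-1.14), were also lower. Without the members carrying other markers, Uchl3 and Pomp were at -0.91 and -0.95.

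At 4 weeks most outer segment genes lay below control in the 41 M-cones. Of 16 outer segment genes used, 12 were lower than control and 6 were past 2-fold lower, beside 4.2% of all genes, with a median of -0.56 in M-cones and 0.04 for the same genes in rods. The minimum of 30 UMIs, easier to reach for genes high in control, applies to this list, to the synapse list below and to the 4.2%. The summed level of the whole list, with its abundant members, moved less: 14798, 15933, 12934 and 14445 CPM. The 6 were Mak, a ciliary kinase (-1.52), Rp1l1, an axonemal protein (-1.42), Prom1, a disc membrane protein (-1.37), Impg2 and Impg1, proteoglycans of the matrix around photoreceptors (-1.28 and -1.09), and Abca4, the retinoid flippase of the outer segment (-1.24). Abca4 stood at 142, 192, 57.9 and 226 CPM over the 4 libraries and Prom1 at 114, 94.7, 42.1 and 113 CPM, so the 4-week value was the low one and 8 weeks lay at or above control. Nxnl2, a rod-derived viability factor homologue, went the other way and was higher in each diabetic library (129, 308, 342 and 408 CPM). In the ribbon synapse list 9 of 19 lay above control and 10 below (median -0.13), and the list summed to 6416 CPM for control members and 5967 CPM for those at 4 weeks. Of the 19, 4 were past 2-fold lower: Lrit3 (-2.21, 181 to 36.8 CPM), Slc1a2 (-1.56), the syntaxin Stx3 (-1.46) and the active zone protein Rims2 (-1.02). Without members that carried other markers, 6 outer segment genes were past 2-fold lower and 6 synapse genes were, and the outer segment median was -0.70. Rod transcripts in M-cones were also lowest at 4 weeks, and their part in this was not tested.

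The cone gene Cngb3 was likewise lowest at 4 weeks (153 CPM, log2 -1.14, -1.78 to -0.58). So was Crym, which stood at 836, 599, 274 and 578 CPM on 388, 253, 52 and 241 UMIs (4 weeks -1.60, -2.06 to -1.19), beside 137, 173, 129 and 125 CPM in rods. Acy1, aminoacylase 1, had 51.7 CPM in control cells and 363 CPM in the 4-week cells (2.79, 2.12 to 3.55; rods 1.62). Gsto1, a glutathione transferase (2.32), and Cd63, a tetraspanin of late endosomes (2.19), followed, with smaller ratios in rods (0.76 and 0.51), and Zfp148, Clptm1l, Cnih4, Abhd12 and Tex261 had ratios from 1.38 to 1.55. Asmt stood at 416 CPM (1.10, 0.65 to 1.55). The lowest were Kif4a, a chromokinesin (-3.36, 37 UMIs in control and 1 at 4 weeks), Pop5, a subunit of RNase P (-2.41), Igf2bp2, an RNA-binding protein (-2.26), Kmt2a, a histone methyltransferase (-2.15), Sptbn1, a spectrin (-1.88), and Pde6g, the inhibitory subunit of rod phosphodiesterase (-1.88). The Pde6g value rests on 40 UMIs in control and 4 at 4 weeks. In control this identifier stood at 86.2 CPM in M-cones and only 50.4 CPM in rods, so its ratio is no measure of rod RNA.

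At 8 weeks the share of genes past 2-fold was the lowest of the 3 times, though not with at most 10% mitochondrial UMIs, where 5.66% were higher and 5.13% lower, beside 5.74 and 3.23% at 2 weeks and 3.45 and 6.90% at 4 weeks. Igf2bp2 was the widest difference, at 138, 85.3, 26.3 and 14.4 CPM over control, 2, 4 and 8 weeks (64 UMIs in 47 control cells and 6 UMIs in 4 cells at 8 weeks, log2 -3.16, -4.76 to -2.06). Control rods held 58.8 CPM and 8-week rods 54.0 CPM. The genes with log2 ratios from -1.43 to -1.19 were Alg14 (N-glycosylation), Gsk3a (a kinase), Kctd10, Pomp, Gemin5, Selenoh (a nuclear selenoprotein) and Lmod1. Higher were Dnajc12, a co-chaperone (1.31, 0.61 to 2.08), Psmg3, a proteasome assembly factor (1.20), Ankrd50 (1.18), Eif4b, a translation initiation factor (1.06), and Ip6k2, an inositol phosphate kinase, which stood at 250, 426, 568 and 511 CPM (1.03, 0.70 to 1.37; rods 0.87). Of 34 respiratory chain genes 32 were below control, by little (median -0.18, 0 past 2-fold lower beside 1.04% of all genes), while the same genes had a median of 0.07 in rods. Of 13 glycolytic genes 11 were below control (median -0.30, rods 0.08), and 12 of 13 were above it at 4 weeks (median 0.23). Without the members carrying other markers, 29 of 34 and 10 of 13 were below control at 8 weeks. Over all genes the 8-week median was -0.03. Of 26 proteasome genes 21 were below control and 5 above (median -0.13), and of 12 oxidative defence genes 10 and 2 (median -0.13). Of 13 mitochondrially encoded genes 11 were above it (median 0.17). The summed respiratory chain list stood at 33988 CPM in the 12 control S-cones and 25824 CPM in the 68 at 8 weeks. The glycolytic list stood at 17686 and 14317 CPM in them.

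**Figure D4:**
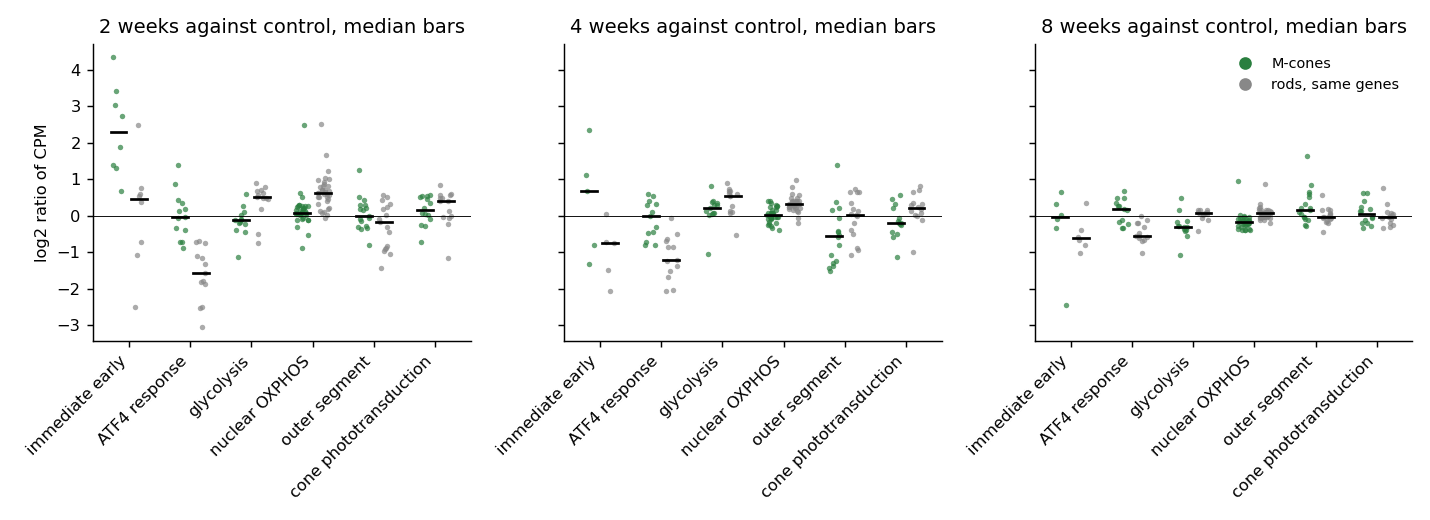
Log2 ratio of CPM to control at 2, 4 and 8 weeks for genes of 6 lists in M-cones (green) and, for the same genes, in rods (grey); points are genes and black bars medians. The ATF4 response medians lie at -0.04, -0.01 and 0.19 in M-cones against -1.56, -1.22 and -0.55 in rods. The immediate early points of M-cones at 2 weeks include the 2 droplets with endothelial or microglial markers.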

How the data were processed

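Droplet single-cell RNA sequencing (10x Genomics) of 4 rat retina libraries was used: control replicate 2 and 1 library each at 2, 4 and 8 weeks of diabetes. Control replicate 1 was not analysed here. The deposited matrices hold raw UMI counts per gene and barcode for 25399 genes, not normalized by the authors. The submitters' processing notes name Cell Ranger 3.0.1 and the Rnor_6.0 build. Which gene annotation was used is not given in the sources used here. The 4 libraries held 25068331, 34177860, 20151789 and 24604362 UMIs, in control and at 2, 4 and 8 weeks, and at least 500 per barcode.

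Members and lists were chosen with earlier results of these data known. Cells were kept by the limits given in the report, and doublets were left in, since their removal was run as an alternative (Scrublet in scanpy 1.11.5, the top 0.8% of barcodes per 1000 barcodes). UMIs were summed per library and cell type and given as CPM of that sum. M-cones were tested against S-cones and rods with edgeR 4.0.16 (R 4.3.3, TMM, filterByExpr, quasi-likelihood test, library as a block), with p-values adjusted over all genes tested. Both sums of a pair come from the same retina. The deviations of the M-cone and S-cone sums of the same library correlated at 0.148, 0.339, 0.158 and 0.327, each the highest of its row. The 4 pairs come from separate retinas of different groups, so p-values measure the spread of the within-retina difference. Times were compared as log2 ratios of CPM with 0.5 counts added, with exact conditional binomial 95% intervals and no test. PCR copies are collapsed by the UMIs, and all intervals cover counting error only. Shares carry Clopper-Pearson intervals. The test was checked on simulated data. Named genes are those called, not used to choose cells, with 1 direction in all libraries and at least 50 CPM in the higher cell type (12 highest and 8 lowest against rods). For times they are the 8 highest and 8 lowest ratios past 2-fold whose interval leaves out 0, at least as high in M-cones as in rods, with at most 20% of UMIs in 1 cell. Members of the lists and a few fixed genes were added. Ccdc136's and Tex28's neighbours were looked up after their values were seen. A further gene used to choose rods, and 1 of the 8 lowest genes at 2 weeks, are not reported here.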

Additional observations from a re-analysis of the deposited data

How the results depend on the processing

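The calls against S-cones depended on the settings. The count of genes higher in M-cones, 3, became 0 with at most 20% mitochondrial UMIs, 6 with at most 10%, 1 with an opsin minimum of 4 UMIs, 14 with single-opsin cells, 0 without Scrublet doublets, 10 without the M-cones highest in rod RNA, 17 without a filter on low counts and 1 with DESeq2. The count of lower genes, 2, became 1, 1, 1, 8, 1 and 13 under the first 6 of these and 1 with DESeq2. Leaving out 1 library gave 1 to 16 higher (16 without the 8-week library) and 1 to 5 lower. Without the replicate block, the counts against S-cones were 0 and 1, and the 1893 genes lower than in rods became 970. Same-library pairing is from the design, and the block changed the calls of Pcp2, Rbp4, Tuba1b and Rgl3. Against rods, at most 10% mitochondrial UMIs gave 488 higher and 778 lower, DESeq2 1009 lower, and leaving out 1 library 1106 to 1558 higher and 1203 to 1481 lower (1203 without the control library). The direction of each gene named against rods or S-cones held under the alternatives that gave a value. Pcp2 gave none without cones carrying other cell types' markers, with either stricter mitochondrial limit, with an opsin minimum of 4, without doublets or without the 2-week library. The cause of these shifts was not tested.

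No paired analysis was possible because the times have 1 library each and their replicate numbers pair nothing. At 2 weeks the 68 higher and 46 lower genes became 28 and 16 at a mean of at least 100 CPM, 127 and 95 at 20 CPM, and 37 and 25 for genes at least as high as in rods. CPM over UMIs that are not mitochondrial gave 76 lower. At 4 weeks the 60 higher and 115 lower became 26 and 52 with at most 10% mitochondrial UMIs and 19 and 34 at 100 CPM, and 54 were lower among genes at least as high as in rods. At 8 weeks the 32 higher became 50 and 53 with at most 20 and 10% mitochondrial UMIs, 58 with an opsin minimum of 4, 49 without doublets, 12 and 69 at 100 and 20 CPM, and 9 for genes at least as high as in rods. The 29 lower became 48 with at most 10% mitochondrial UMIs, and 6 and 63 at 100 and 20 CPM. A lower CPM minimum admits more genes and a higher one fewer. Of the genes named for the times, Smarcd2 at 2 weeks turned to -0.10 with an opsin minimum of 4 and Ankrd50 at 8 weeks to -0.12 with at most 10% mitochondrial UMIs.

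The share of M-cones among kept cells became 0.451, 0.521, 0.083 and 0.303% (control, 2, 4, 8 weeks) with at most 10% mitochondrial UMIs, which put 8 weeks below control, and 0.774, 0.277, 0.152 and 0.904% with an opsin minimum of 4. Their share among M- and S-cones became 52.4, 57.7 and 50.4% at 2, 4 and 8 weeks with an opsin minimum of 4, 82.1% at 2 weeks without doublets, 60.0% at 4 weeks with at most 10% mitochondrial UMIs, 90.1% at 8 weeks with single-opsin cells, and 80.8, 56.8, 47.1 and 49.5% after thinning. The 4-week values rest on the fewest cells, 41, and the fewest summed UMIs.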
